A study of Mus musculus with 12 samples.

Results

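The genes described here encode the core of Polycomb repressive complex 2 (PRC2) and one of its accessory proteins. They are Eed, Suz12, the catalytic pair Ezh2 and Ezh1, and Jarid2. Each was taken as the rows of the deposited transcript table that overlap its window on mouse build mm9, on the strand with most fragments, and its transcripts were summed to a locus. This gave 5 loci of the 26699 in the table, built from 14 transcript rows, and all 5 were among the 13749 loci with enough fragments to be tested.

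RNA was sequenced from Six2-expressing cells of the kidney of newborn mice (postnatal day 0), sorted by flow cytometry, a population in which Six2 marks the progenitors of the nephron. There were 2 mutant high, 2 control high, 4 mutant low and 4 control low libraries, and all carried the R26R-tdTomato reporter construct, controls included. The titles call the populations high and low expression without naming the signal sorted on. The series title names Eed as the Polycomb gene studied, but no sample label gives the mutated allele, the exons removed or the driver of recombination, so "mutant" is used as in the titles. Whether each library is a different animal is not labelled, and the p-values below therefore describe variation among these libraries, some of which may be technical.

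PRC2 places a repressive methyl mark on the tail of histone H3 at the promoters of developmental regulators. Ezh2 or Ezh1 carries out the methylation, Suz12 holds the complex together, and Eed binds the mark already in place and stimulates the enzyme. Ezh2 is the form typical of dividing cells, Ezh1 is kept in many resting and differentiated cells, and Jarid2 helps bring the complex to its targets and tunes its activity.

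The 5 loci were Eed at chr7:97103164-97129486 (minus strand), Ezh2 at chr6:47480273-47545337 (minus), Suz12 at chr11:79806608-79847625 (plus), Ezh1 at chr11:101052429-101087764 (minus) and Jarid2 on the plus strand of chromosome 13, starting at 44826207 and spanning 190140 bases, all in mm9. The most abundant transcript row of each locus was set against the protein-coding transcript of that gene name nearest in genomic span in GENCODE M21. Chromosome and strand were the same, and the spans of these transcripts differed by 7 bases for Eed, 135 for Ezh2, 0 for Suz12, 1 for Ezh1 and 98 for Jarid2. Identifiers in the table are not paired with names, so markers of the labelled cell type and other Polycomb genes were not analysed here. Library totals were 7779040 to 9307989 fragments in mutant high, 4549011 to 6249263 in control high, 5948488 to 12317879 in mutant low and 6784907 to 12365078 in control low cells. Both control high libraries stood apart in makeup. They held 4.51% and 10.3% of fragments on the mitochondrial chromosome, against 0.494% to 1.96% in the other libraries, and their 100 most abundant loci took 29.1% and 34.4%, against 18.8% to 22.1% elsewhere.

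Because the results turn on the 2 catalytic genes, the longest stretch of identical bases that they share is shown first. It runs over 17 bases of coding sequence, printed in capitals with 15 bases on either side, from the GENCODE M21 transcripts of Ezh2 (the shared run at positions 2347 to 2363) and Ezh1 (positions 2332 to 2348), in 5′ to 3′ direction.
Ezh2: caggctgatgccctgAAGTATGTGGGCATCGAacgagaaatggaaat
Ezh1: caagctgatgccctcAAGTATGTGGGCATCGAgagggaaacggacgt
No stretch of 50 bases was common to both transcripts, and none of the 4144 such stretches of Ezh1 or the 4970 of Jarid2 occurred in another M21 gene. For Eed, 212 of 2018 stretches (10.5%) lay also in E230029C05Rik, for Ezh2 44 of 2738 (1.61%) in Gm26625 and for Suz12 131 of 4324 (3.03%) in Gm26563. Each of these lies on the opposite strand of the same chromosome, and strand use in counting is not given in the sources used here, so fragments from those stretches cannot be assigned between partners.

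The start regions of Ezh2 and Ezh1 are shown because these genes moved in the same direction between the groups of high cells. Each runs from 250 bases before to 30 bases after the RefSeq start on GRCm38.p6, 5′ to 3′ along the gene, at chr6:47595001-47595280 (minus strand) for Ezh2 and chr11:101226434-101226713 (minus strand) for Ezh1. Capitals mark matches on either strand to CCAAT, or to the E2F-type letters TTTCCCGC, TTTGGCGC, TTTCGCGC and TTTGCCGC.
Ezh2: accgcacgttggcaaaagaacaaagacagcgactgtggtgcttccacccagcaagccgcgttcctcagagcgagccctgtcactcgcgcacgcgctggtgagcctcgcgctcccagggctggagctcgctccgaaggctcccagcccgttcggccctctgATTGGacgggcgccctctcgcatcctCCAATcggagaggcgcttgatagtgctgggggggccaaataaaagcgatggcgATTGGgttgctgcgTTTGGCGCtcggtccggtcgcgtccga
Ezh1: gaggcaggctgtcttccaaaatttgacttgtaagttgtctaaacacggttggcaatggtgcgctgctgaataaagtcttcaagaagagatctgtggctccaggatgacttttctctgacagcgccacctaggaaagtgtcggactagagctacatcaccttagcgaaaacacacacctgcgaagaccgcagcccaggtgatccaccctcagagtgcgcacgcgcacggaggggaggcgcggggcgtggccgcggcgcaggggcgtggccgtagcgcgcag
The Ezh2 window held 1 E2F-type match and 3 CCAAT matches, and the Ezh1 window held neither. E2F-type letters occurred in 696 of 32851 RefSeq start regions of the same length (2.12%) and CCAAT in 36.1%. Suz12 also held 1 E2F-type match, and Eed and Jarid2 had CCAAT without one. A match describes the letters only and says nothing of a factor's binding.

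Eed, the subunit that reads the mark, was measured at lower levels in mutant than in control cells of both populations, and the difference passed the adjusted test in neither population alone. Levels are in CPM, fragments scaled to the library's size. In mutant low cells Eed stood at 7.27, 11.1, 5.44 and 9.91 CPM, against 14.4, 13.05, 15.5 and 13.4 CPM in control low cells. Every mutant low library lay below every control low library. In mutant high cells it stood at 4.73 and 7.26 CPM, against 8.74 and 9.07 CPM in control high cells. Those groups did not overlap either, and the mutant libraries were again the lower ones. That separation in high cells depends on the TMM scaling. As a share of the library total, mutant high replicate 2 (59 of 7779040 fragments) lay above both control high libraries (42 of 6249263 and 32 of 4549011). In scaled CPM, ranges apart with the mutants lower occurred in 6.69% of loci tested in low cells, 31.2% in high cells and 3.4% in both. The group mean was 8.44 ± 2.56 CPM in mutant low cells and 14.1 ± 1.09 CPM in control low cells (SD, n = 4 each), so the mutant level was 60.0% of the control level. In high cells it was 6.00 ± 1.79 CPM in mutants and 8.90 ± 0.238 CPM in controls (SD, n = 2 each), or 67.4%.

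The difference for Eed in low cells was a log2 fold change of -0.74 (SE 0.26, 95% interval -1.30 to -0.18), with an adjusted p of 0.107 by edgeR's quasi-likelihood test with Benjamini-Hochberg adjustment over all loci tested. The unadjusted p was 0.0130, a level under 0.05 that 20.4% of loci reached, and the adjusted p ran from 0.0651 to 0.541 over 25 other settings. The log2 fold change was -0.58 among libraries whose description number was 7 or less and -0.90 among those above 7. In high cells the log2 fold change was -0.57 (SE 0.39, -1.40 to 0.25; edgeR Benjamini-Hochberg adjusted p = 0.291). The difference between both mutant effects, high minus low, was 0.17 (edgeR Benjamini-Hochberg adjusted p = 0.861). A contrast added after the values were seen averaged the mutant effect over both populations. In it Ezh2 was higher in mutants by a log2 fold change of 0.72 (0.26 to 1.18; edgeR Benjamini-Hochberg adjusted p = 0.0221). That mean joins 1.46 in high and -0.02 in low cells. Suz12 and Ezh1 were not called. Eed was lower in mutants by a log2 fold change of -0.66 (SE 0.23, -1.15 to -0.16; edgeR Benjamini-Hochberg adjusted p = 0.0482), beside 28.2% of loci called. That call was lost in 11 of the 12 fits that left out 1 library and held only without mutant low replicate 2, with edgeR adjusted p between 0.0293 and 0.207.

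These Eed values rest on few fragments. The groups held 108 fragments in mutant high, 74 in control high, 307 in mutant low and 525 in control low cells, and counting error alone is 19.4%, 23.5%, 11.4% and 8.65% of those sums at 95% confidence. Only 1 transcript row covers the gene from end to end, so the count does not show whether a part of the gene is missing from the mutant RNA. In bulk samples, fewer cells with the RNA and less RNA per cell cannot be told apart.

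**Figure D1:**
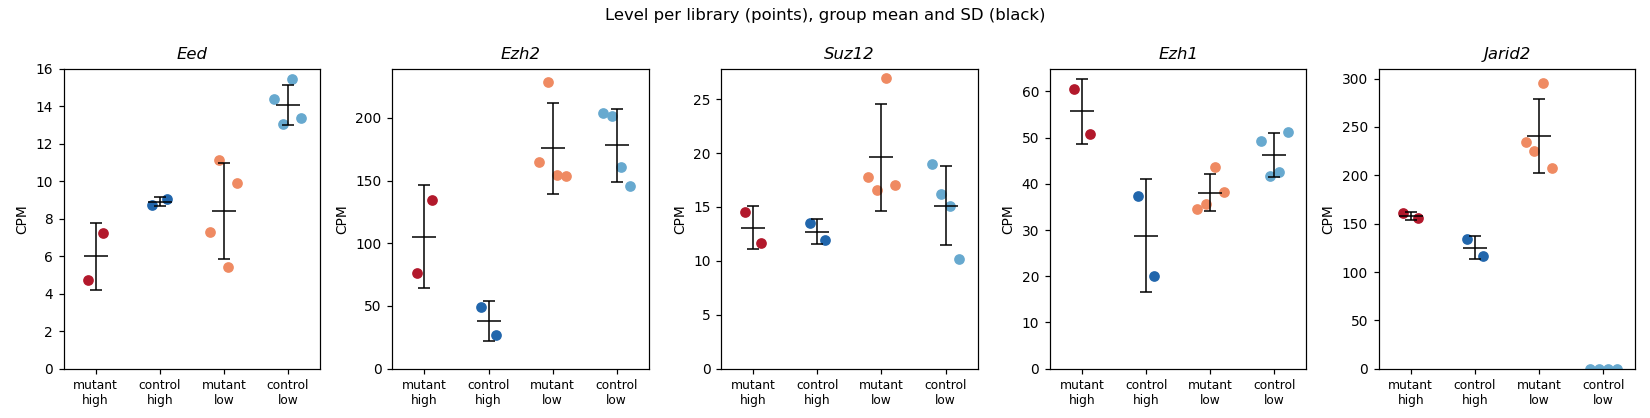
Level of each gene in CPM (vertical axes, each starting at 0) in mutant high, control high, mutant low and control low cells, with 1 point per library and black bars for the group mean and SD. Eed lies lower in mutant than in control libraries of each population, Ezh2 is lowest in the 2 control high libraries, and Jarid2 is at 0 in the 4 control low libraries, which have no bar.

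Ezh2, a catalytic subunit, was higher in mutant than in control high cells and did not pass the test between mutant and control low cells. Mutant high cells held 76.2 and 135 CPM, against 49.5 and 26.7 CPM in control high cells. Both mutant libraries were above both control libraries, a pattern found in 35.9% of loci. The means were 105 ± 41.2 CPM in mutants and 38.1 ± 16.2 CPM in controls of the high population (SD, n = 2 each), a 2.77-fold ratio. Ezh2 rose in mutant high cells by a log2 fold change of 1.46 (SE 0.36, 0.70 to 2.23; edgeR Benjamini-Hochberg adjusted p = 0.00812). In low cells it stood at 165, 229, 155 and 154 CPM in mutants, against 204, 201, 161 and 145 CPM in controls. These ranges overlapped, with the highest library among the mutants and the lowest among the controls. The log2 fold change in low cells was -0.02 (SE 0.24, -0.54 to 0.50; edgeR Benjamini-Hochberg adjusted p = 0.977), and its sign changed with the scaling.

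The rise of Ezh2 in mutant high cells was checked in 24 other settings. Sums of the window rows on 1 strand or both hold the locus's own rows and repeat the main result in every comparison. Leaving out a low library removes none of the libraries compared here. The rise passed in 21 of the 24 settings. It was lost without mutant high replicate 2 (log2 fold change 1.01, edgeR adjusted p = 0.117), without control high replicate 2 (1.07, edgeR adjusted p = 0.107) and with each transcript as its own feature (1.58, edgeR adjusted p = 0.144). The control high libraries that it is set against are those with the large mitochondrial share, and the lower Ezh2 value was in the library with 10.3%. The Ezh1 result in high cells, the differences between mutant effects and the comparison of control high with control low cells use the same libraries. The part of that share in any of these results was not tested.

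Ezh1, the other catalytic subunit, stood in mutant high cells at 60.6 and 50.7 CPM, against 37.4 and 20.1 CPM in control high cells. The mutant libraries were the higher ones and the groups did not overlap, as in 35.9% of loci. Ezh1 rose in mutant high cells by a log2 fold change of 0.95 (SE 0.30, 0.30 to 1.59; edgeR Benjamini-Hochberg adjusted p = 0.0314), a 1.93-fold ratio of means. The call was lost without mutant high replicate 1 (0.81, edgeR adjusted p = 0.138), mutant high replicate 2 (1.08, edgeR adjusted p = 0.0630) or control high replicate 2 (0.56, edgeR adjusted p = 0.275), and it held in 18 of 24 other settings. In low cells Ezh1 stood at 34.6, 35.7, 43.7 and 38.2 CPM in mutants, against 49.4, 41.7, 42.6 and 51.1 CPM in controls. Only mutant replicate 3 reached into the control range. The log2 fold change was -0.28 (SE 0.21, -0.73 to 0.17; edgeR Benjamini-Hochberg adjusted p = 0.504).

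Ezh2 and Ezh1 were thus called higher in mutant high cells and neither was called in low cells, and the difference between the mutant effects was itself tested. For Ezh2 the effect in high minus that in low cells was 1.48 on the log2 scale (SE 0.43, 0.56 to 2.41; edgeR Benjamini-Hochberg adjusted p = 0.0422). For Ezh1 it was 1.22 (SE 0.37, 0.44 to 2.01; edgeR Benjamini-Hochberg adjusted p = 0.0471). Both passed, 2 of the 4 genes that could be tested, where 10.3% of all loci were called and 7.29% were called in this direction. Both calls lay near the threshold. The call on Ezh2 passed in 9 of 22 other settings, with log2 values from 0.99 to 2.00. The call on Ezh1 passed in 8 of 22, with values from 0.81 to 1.75. With each transcript as a feature, the edgeR adjusted p was 0.248 for Ezh2 and 0.141 for Ezh1. Leaving out 1 library kept the Ezh2 call only without mutant high replicate 1, control high replicate 1, mutant low replicate 2 or control low replicate 4. The Ezh1 call held only without control high replicate 1 or mutant low replicate 3.

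Between the populations of control kidneys, Ezh2 was the gene that differed most among the 4 compared. The control high libraries of Ezh2 lay below all control low ones, as did 35.4% of loci, and their mean was 21.4% of that in control low cells, where Ezh2 averaged 178 ± 29.4 CPM (SD, n = 4). It fell by a log2 fold change of -2.22 (SE 0.34, -2.95 to -1.49; edgeR Benjamini-Hochberg adjusted p = 7.83e-05), and the call held in all 23 other settings, from -2.76 to -1.79. Every setting keeps at least 1 of the control high libraries with the large mitochondrial share, whose part was not tested. Ezh1 averaged 28.8 ± 12.2 CPM in control high (SD, n = 2) and 46.2 ± 4.74 CPM in control low cells (SD, n = 4). It passed with a log2 fold change of -0.68 (SE 0.27, -1.25 to -0.10; edgeR Benjamini-Hochberg adjusted p = 0.0457) but in only 5 of 23 other settings, and leaving out 1 library kept the call only without control high replicate 1 or mutant low replicate 3. Without control high replicate 2 the Ezh1 change was -0.25 (edgeR adjusted p = 0.537). Eed stood at 8.74 and 9.07 CPM in control high cells, below all control low libraries, with a log2 fold change of -0.66 (SE 0.34, -1.38 to 0.06; edgeR Benjamini-Hochberg adjusted p = 0.116). The 2 of 4 genes called stand beside 52.3% of all loci called and 27% called lower in the same comparison, so a call there does not set the genes apart.

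In mutant kidneys, no gene of the 5 passed between high and low cells by edgeR's quasi-likelihood test. Of the 5, 3 had an unadjusted p under 0.05, as did 42.5% of loci, DESeq2 called 0 and limma-voom 1, Jarid2, while 32.2% of all loci were called. The mutant high libraries share description numbers with 2 of the mutant low ones, what the numbers mark is not labelled, and edgeR with those numbers as a block called 1 gene, Ezh2. Ezh2 in mutant high cells was at 60.0% of its mutant low mean, with a log2 fold change of -0.74 (SE 0.31, -1.40 to -0.07; edgeR Benjamini-Hochberg adjusted p = 0.0834). Ezh1 ran the other way, with mutant high libraries above all mutant low ones, as in 26.7% of loci, and a log2 fold change of 0.55 (SE 0.25, 0.01 to 1.08; edgeR Benjamini-Hochberg adjusted p = 0.110). Eed libraries overlapped between these groups, and the log2 fold change was -0.49 (edgeR Benjamini-Hochberg adjusted p = 0.277).

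**Figure D2:**
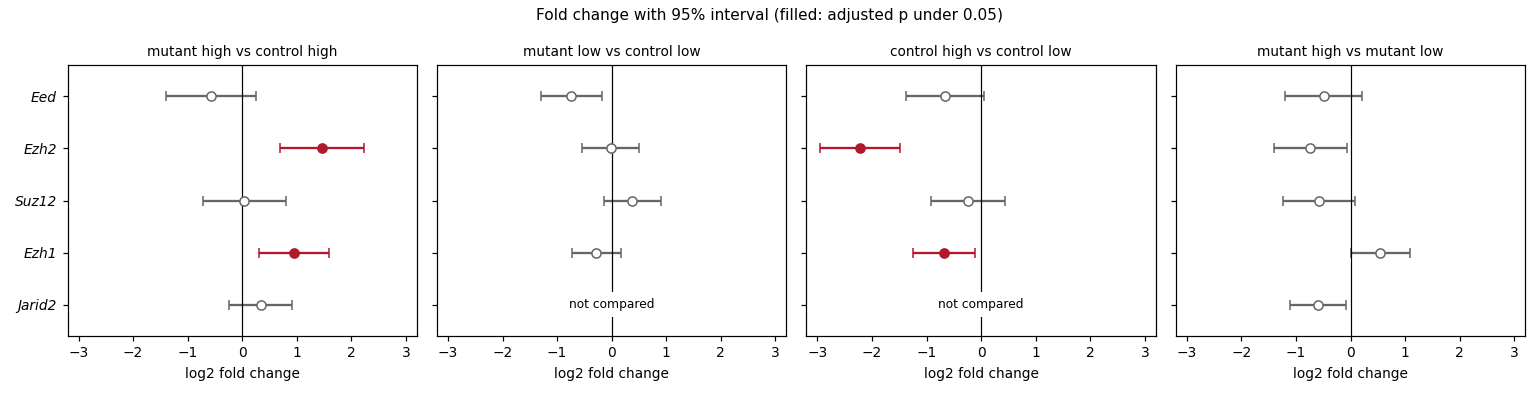
Log2 fold change (horizontal axes) of the 5 genes in 4 comparisons, first group over second, with 95% intervals from edgeR; filled points have a Benjamini-Hochberg adjusted p under 0.05. Ezh2 and Ezh1 are filled to the right of 0 in mutant high against control high cells and to the left in control high against control low cells, no gene is filled in the other 2 comparisons, and Jarid2 is not compared where control low cells are used.

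The RNA of both catalytic subunits was also compared as the ratio of Ezh2 to Ezh1 fragments within a library, which needs no scaling between libraries. This ratio is not corrected for transcript length, 2787 bases for Ezh2 and 4193 for Ezh1 in GENCODE M21. It therefore serves to compare libraries and is not the ratio of the RNA amounts or of the proteins. It was 1.26 and 2.65 in mutant high and 1.32 and 1.32 in control high cells. In mutant low cells it was 4.76, 6.42, 3.54 and 4.02, against 4.14, 4.83, 3.78 and 2.84 in control low cells. Every low library had a higher ratio than every high library, though narrowly, with 2.84 in a control low against 2.65 in a mutant high library. How often ratios of other pairs of loci lie apart in this way was not examined. Mutant and control overlapped in both populations. On the log2 scale the low groups averaged 2.19 ± 0.37 in mutants and 1.94 ± 0.32 in controls (SD, n = 4 each), a difference of 0.26 with an exact two-sided permutation p of 0.4. The means of the high groups were 0.87 ± 0.76 in mutants and 0.40 ± 0.0013 in controls (SD, n = 2 each). The difference between high and low cells was -1.32 in mutants and -1.53 in controls. With 2 libraries in a high group, a permutation test cannot reach 0.05, and none is given.

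**Figure D3:**
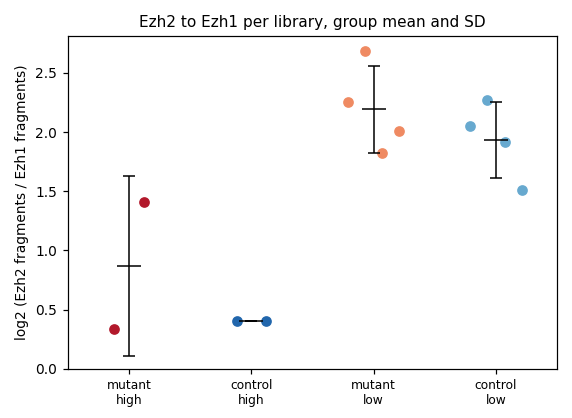
Log2 of Ezh2 fragments over Ezh1 fragments (vertical axis) in each library of the 4 groups, with 1 point per library and black bars for the mean and SD. All 8 low libraries lie above all 4 high libraries, and 1 mutant high library, at a ratio of 2.65, lies nearest to them.

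Suz12, which holds the complex together, passed the test in none of the 5 comparisons with edgeR, DESeq2 or limma-voom, and its unadjusted edgeR p was under 0.05 in 0 of them. It stood at 14.5 and 11.7 CPM in mutant high, against 13.5 and 11.9 CPM in control high cells. These values overlapped, with a log2 fold change of 0.04 (SE 0.36, -0.73 to 0.81; edgeR Benjamini-Hochberg adjusted p = 0.946) whose sign changed with the scaling. In low cells it stood at 17.8, 16.6, 27 and 17.1 CPM in mutants, against 18.9, 16.2, 15.1 and 10.2 CPM in controls. The groups overlapped, with mutant replicate 3 above the other mutants and control replicate 4 below the other controls. The log2 fold change was 0.38 (SE 0.25, -0.15 to 0.91; edgeR Benjamini-Hochberg adjusted p = 0.431). Both mutant high libraries lay below all mutant low ones, as in 23.3% of loci. Between high and low cells the log2 fold change was -0.58 in mutants (edgeR Benjamini-Hochberg adjusted p = 0.168) and -0.24 in controls (edgeR Benjamini-Hochberg adjusted p = 0.540).

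Jarid2, the accessory subunit, was listed at 0 fragments in all 4 control low libraries, in each of its 5 transcript rows. The other 8 libraries held 412 to 2661 fragments. A 0 in a table of estimated counts can be a failed estimate, so no fold change was made against control low cells. It was the only locus of the table at 0 in every library of a group and at 100 fragments or more in every other library, among 4283 loci with that many fragments outside control low cells. The neighbouring locus on the other strand, at chr13:45017449-45097465 and 1102 bases away, held 1286 to 3111 fragments in mutant low and 1973 to 3268 in control low libraries.

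Where Jarid2 could be compared, mutant high cells held 161 and 155 CPM, against 134 and 117 CPM in control high cells. The mutant libraries were the higher ones without overlap, as in 35.9% of loci. The log2 fold change was 0.34 (SE 0.27, -0.25 to 0.92; edgeR Benjamini-Hochberg adjusted p = 0.378). Mutant low cells held 234, 225, 296 and 207 CPM, all above both mutant high libraries, the direction without overlap in 23.3% of loci. The log2 fold change of mutant high over mutant low cells was -0.60 (SE 0.24, -1.12 to -0.09; edgeR Benjamini-Hochberg adjusted p = 0.0704), and limma-voom gave -0.59 with an adjusted p of 0.0347.

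Set against all loci, 2 of the 5 genes were called between mutant and control high cells, both higher, where 27.5% of loci were called and 16.3% were called higher. The median log2 fold change over the genes there was 0.34, and over all loci 0.08. Between mutant and control low cells, 0 of 4 genes passed with edgeR, DESeq2 or limma-voom, with 1 at an unadjusted p under 0.05, and 8.03% of loci were called. The medians there were -0.15 over the genes and -0.06 over all loci. Changing edgeR's scaling from TMM to its RLE method moved the median of all loci between control high and control low cells by 0.10, and by less in the other comparisons.

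Levels per kilobase of transcript allow a rough comparison of different genes. Each locus was divided by the length of 1 GENCODE M21 transcript, 2787 bases for Ezh2. Yet 10.1% to 32.8% of Ezh2 fragments were assigned to the row uc009btd.1, which covers only part of the gene. On this scale Ezh2 had the highest mean of the 5 in mutant high and mutant low cells. In control low cells it had the highest mean of the 4 genes listed above 0. Its mean was 37.8 CPM per kilobase in mutant high, 13.7 in control high, 63.0 in mutant low and 63.8 in control low cells. In control high cells Jarid2 was above it, at 24.96 CPM per kilobase. Jarid2 reached 31.5 in mutant high and 47.9 in mutant low cells. The order was not the same in every library. Jarid2 was above Ezh2 in mutant high replicate 1 (32.1 against 27.4) and mutant low replicate 3 (58.9 against 55.5), and below it in the other mutant libraries. Ezh1 lay at 13.3 in mutant high, 6.87 in control high, 9.07 in mutant low and 11.0 in control low cells. Eed and Suz12 were the scarcest of the genes measured above 0, with Eed at 2.90, 4.31, 4.08 and 6.80 and Suz12 at 2.99, 2.91, 4.48 and 3.45 CPM per kilobase in the same order of groups.

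The order of group means differed by gene. Eed ran from control low through control high and mutant low to mutant high cells, and the control high values lay inside the mutant low range. Ezh2 ran from control low and mutant low, which overlapped, through mutant high to control high cells. Ezh1 ran from mutant high through control low and mutant low to control high cells, with each neighbouring pair overlapping. Suz12 also overlapped between neighbours at every step.

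Most genes drew their fragments from 1 transcript row, and Ezh2 was the exception. Its rows uc009btb.2 and uc009btc.2 have the same ends, and uc009btd.1 covers only the part of the gene nearer its start. The row uc009btb.2 took 15.1%, 0.0228%, 56.4% and 47.2% of Ezh2 fragments in mutant low cells, against 24.4%, 14.5%, 0.0336% and 12.3% in control low cells. It took 0.0393% to 0.0509% in mutant high and 0.102% to 0.190% in control high cells. Its share was thus near 0 in all 4 high libraries and in 1 low library of each genotype, while the other low libraries were spread widely and overlapped between genotypes. The row uc009btc.2 took 32.5% to 72.1% in mutant low and 56.6% to 77.5% in control low cells. Fragments of rows with the same ends were divided by an estimate, whose error is not given, and no test was made on the shares.

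**Figure D4:**
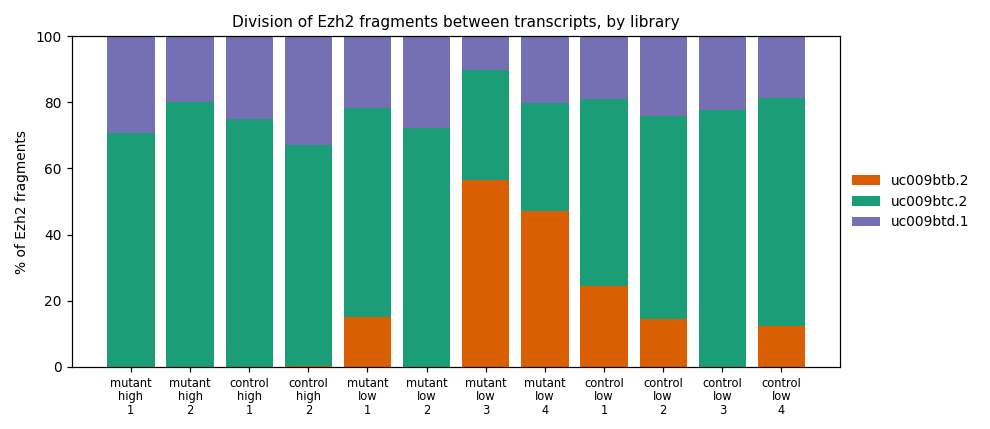
Share of Ezh2 fragments (percent, vertical axis) assigned to each of its 3 transcript rows in every library, grouped as mutant high, control high, mutant low and control low. The row uc009btb.2 is near 0 in the 4 high libraries and ranges from 0.0228% to 56.4% in mutant low cells.

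Among all tested loci, the profile most like that of Eed over the 12 libraries, by root mean square difference of centred log2 CPM, was that of uc008ojk.2 at chr2:180324112-180330542, at 0.18. It averaged 10.6 CPM in mutant high, 12.9 in control high, 13.5 in mutant low and 19.7 in control low cells. For Ezh2 it was uc012gol.1 at chr9:14690258-14708395, at 0.23, with 0.747, 0.104, 1.43 and 1.39 CPM in the same groups. That locus lies near 0 in control high cells (SD 0.147 CPM), so its likeness to Ezh2 rests on very few fragments there. Neither of these nearest profiles was that of another gene of the complex. Seen from Eed, Ezh1 ranked 4298, Suz12 4534 and Ezh2 7294 of 13748 loci, and seen from Ezh2, Ezh1 ranked 3532, Suz12 3963 and Eed 4832.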

How the data were processed

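RNA of 12 sorted samples was measured, grouped and numbered by their titles. The authors deposited 1 table of estimated counts (fragments per transcript, not normalized), per the file headers made as raw fragments of CuffDiff2. Bowtie2, HTSeq, DESeq2 and build mm9 are named without roles in the submitters' processing notes; settings, multiple alignments and strand use are details not given in the sources used. Of 55418 rows, 303 had no position. Start positions were taken to count from 0, since end minus start equals the RefSeq gene length for Eed and Suz12, and are printed 1-based. Rows overlapping on a strand were summed to loci, since fragments are divided between transcripts, and 99.4% to 99.9% of sums were whole within 0.01; they were rounded. This took the place of gene counts. The genes and lists were chosen with earlier results of these data known.

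The test was edgeR 4.0.16 in R 4.3.3 (quasi-likelihood, TMM, filterByExpr, robust, 1 fit of all 12 libraries in 4 groups, two-sided, Benjamini-Hochberg adjusted p under 0.05 over 13749 loci). It was run on simulated data only for mutant against control low cells. The comparisons that use high cells were not examined that way. Other settings used DESeq2 1.42.0, limma 3.58.1 (voom), other scaling and filters, replicate blocks, description numbers and leaving out each library. Each transcript as a feature and sums of the window rows were also used, and those sums repeat the main result. Where a high library is left out, the lone one is assumed to vary like the other groups. Named were the 5 genes, their transcripts above a mean of 1 CPM and, for Eed and Ezh2, the nearest profile. Levels per kilobase use GENCODE M21 transcripts. Counting intervals at 95% cover counting error only. Sequences are from RefSeq GRCm38.p6 and GENCODE M21; other Polycomb genes and cell type markers were not analysed here.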

Additional observations from a re-analysis of the deposited data

Results flagged for a closer look

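In mutant low cells, replicate 2 had an Ezh2 level of 229 CPM, apart from the other 3 mutant low libraries at 154 to 165 CPM. Replicate 3 of the same group had a Suz12 level of 27 CPM, against 16.6 to 17.8 CPM in the others. These are different libraries, and chance sets apart about 1 in 20 groups by this gap. Between populations the difference from control was unequal for Ezh2, by 1.48 on the log2 scale, and for Ezh1, by 1.22, by the interaction test given above.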

How the results depend on the processing

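Between mutant and control low cells, no setting brought any gene past the threshold. Ezh2 changed sign there, at 0.0173 with edgeR's RLE scaling, 0.0241 without a filter, 0.0186 with DESeq2 and 0.0131 with only the groups compared. It was 0.12 in libraries that share a description number, 0.00985 for description numbers above 7, and -0.17 to 0.0516 with 1 library left out. Suz12 was -0.0302 there for numbers up to 7. Between mutant and control high cells Suz12 was -0.00074 with edgeR's RLE scaling, -0.0170 with the stricter filter, and -0.12 to 0.20 with 1 library left out. The Eed difference of mutant effects ran from -0.19 to 0.42 with 1 library left out, and the Ezh2 to Ezh1 log2 ratio difference was -0.23 with each transcript as a feature.

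Counts of genes called moved as follows. Between mutant and control high cells (2 called), 1 was called with only the groups compared, 0 with each transcript as a feature, 1 without control low libraries, and 0 to 2 with 1 library left out. Between control high and control low cells (2 called), 1 was called with edgeR's RLE scaling, without a filter, with the stricter filter and with DESeq2. The count was also 1 with only the groups compared, the replicate block, the description number as block and each transcript as a feature. It was 1 to 2 with 1 low library left out. Between mutant high and mutant low cells (0 called), limma-voom and both blocks called 1. For the difference of mutant effects (2 called), 0 were called with edgeR's RLE scaling, the description number as block or each transcript as a feature. The count was 1 without a filter, with the stricter filter and with limma-voom, and 0 to 1 with 1 low library left out. A fit of only the groups compared could not be made for that difference. The causes were not tested.

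The labels do not say that equal numbers pair samples, so the replicate block was not used above, and correlations of same-numbered deviations ran from -0.149 to 0.467. With the replicate block, Ezh2 passed between mutant high and mutant low cells at -0.93 (edgeR adjusted p = 0.0439), and with the description number as block at -0.94 (edgeR adjusted p = 0.0271). With the replicate block Eed in low cells was -0.78 (edgeR adjusted p = 0.0809).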
